A study of Mus musculus with 2 samples.

Results

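The genes described here encode growth factors that signal through receptor tyrosine kinases, their receptors and their binding proteins. They were selected by gene symbol alone: the FGF and PDGF families, the IGF ligands, receptors and binding proteins, the VEGF and angiopoietin ligands, the VEGF receptors, the EGF ligands and receptors, HGF and MET, and KIT and its ligand. The rule matched 72 of the 19937 genes named on the array, each through 1 probe set. Of these, 70 belong to the families and 2 were matched by name only: Fgf2os, a transcript antisense to Fgf2, and Fgfr1op2, whose product is neither a growth factor nor a receptor. Areg, an EGF family ligand, was not analysed here.

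The data are 2 Affymetrix Mouse Gene ST microarrays of RNA from medullary thymic epithelial cells (mTEC) of B6 mice aged 6 weeks, 1 array per genotype. All mice carried HDAC3fl/fl alleles, which Cre can delete. The mice labelled WT had no Cre, and those labelled HDAC3cKO had Foxn1-Cre, driven by the promoter of a gene of thymic epithelium. HDAC3 is a histone deacetylase of corepressor complexes. The sort took cells positive for EpCAM, negative for CD45 and low for Ly51 and for MHC class II, and 10 to 30 HDAC3cKO mice were typically pooled to reach about 30000 cells. With 1 array per genotype no test was possible, no value has a replicate error, and a gene said to be higher or lower is so on this pair of arrays.

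Levels are log2 intensities after RMA, a method that corrects background and normalizes arrays, and differences are the HDAC3cKO-labelled array minus the WT-labelled array. Hdac3 itself was at 10.90 on the WT-labelled array and at 11.64 on the HDAC3cKO-labelled array, which goes against the genotype label. Each array is therefore called by its label only, and which exons the floxed allele removes and the probe set covers is not known here. Epcam, the sort marker, was at 11.33 and 11.06, and Foxn1, the regulator of thymic epithelium, was at 9.68 and 9.81. Genes of the sort exclusions were still measured. Ptprc, which encodes CD45, was at 9.63 on the WT-labelled array and 8.79 on the HDAC3cKO-labelled array, while the class II gene H2-Aa was at 13.30 and 13.31. Pooled RNA cannot tell fewer cells of a type from less RNA per cell.

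Receptor tyrosine kinases are cell surface receptors that pair when a ligand binds and then phosphorylate tyrosines on each other, which recruits adaptors to the RAS-MAPK and PI3K-AKT cascades. Many of their ligands are held by heparan sulphate or by binding proteins before they reach a receptor. In the thymus, FGF7 and FGF10 from mesenchyme drive growth of the epithelium through a splice form of FGFR2, KIT ligand from stroma supports early T cell progenitors, and VEGF supports the vessels through which progenitors enter.

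Of the 72 genes, 13 were at least 2-fold higher on the HDAC3cKO-labelled array, or 18.1%, against 2.97% of all named genes. At least 2-fold lower were 5 of the 72, or 6.94%, against 5.88% of all named genes. At a 1.5-fold threshold 18 genes were higher, or 25.0%, against 8.33% of all named genes, and 10 were lower, or 13.9%, against 11.2%. Past 3-fold there were 5 higher genes, or 6.94%, against 0.757%, and 3 lower genes, or 4.17%, against 2.88%. The share of higher genes was thus above that of all genes at each of these thresholds, and the share of lower genes was close to it at 2-fold. The median difference of the 72 genes was 0.03, beside 0.01 for all named genes, and 44 of the 72 differed by less than 1.5-fold. On both arrays, 28 of the 72 were below the median gene level, which was 8.07 on the WT-labelled array and 7.96 on the HDAC3cKO-labelled array, and a low level compresses a difference. Just inside the 2-fold threshold lay Pdgfd, at 1.04, and Igfbp4, at 1.07, and just outside it lay Fgfr4, at -0.95, and Fgfr1, at 0.86.

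**Figure D1:**
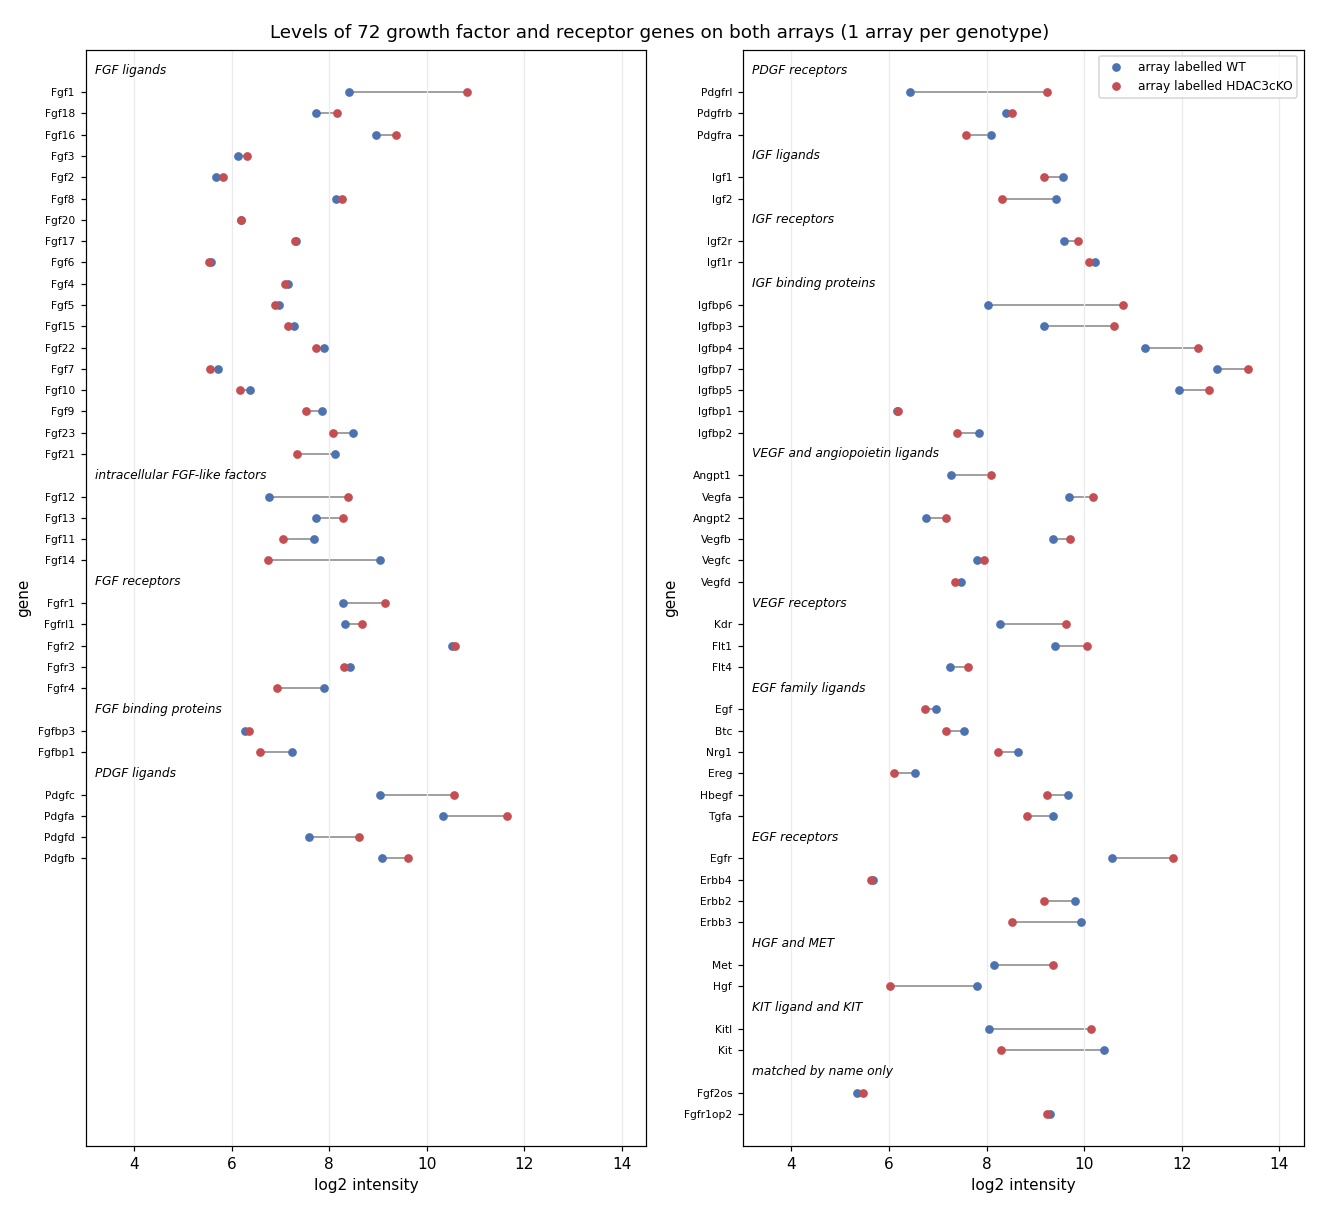
Log2 intensity (horizontal axis) of each of the 72 genes (vertical axis, grouped by role) on the WT-labelled array (blue) and the HDAC3cKO-labelled array (red), 1 array each, with a grey line joining them. The longest lines are those of Pdgfrl, from 6.43 to 9.25, and Igfbp6, from 8.03 to 10.79, and most FGF ligands have lines too short to see.

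**Figure D2:**
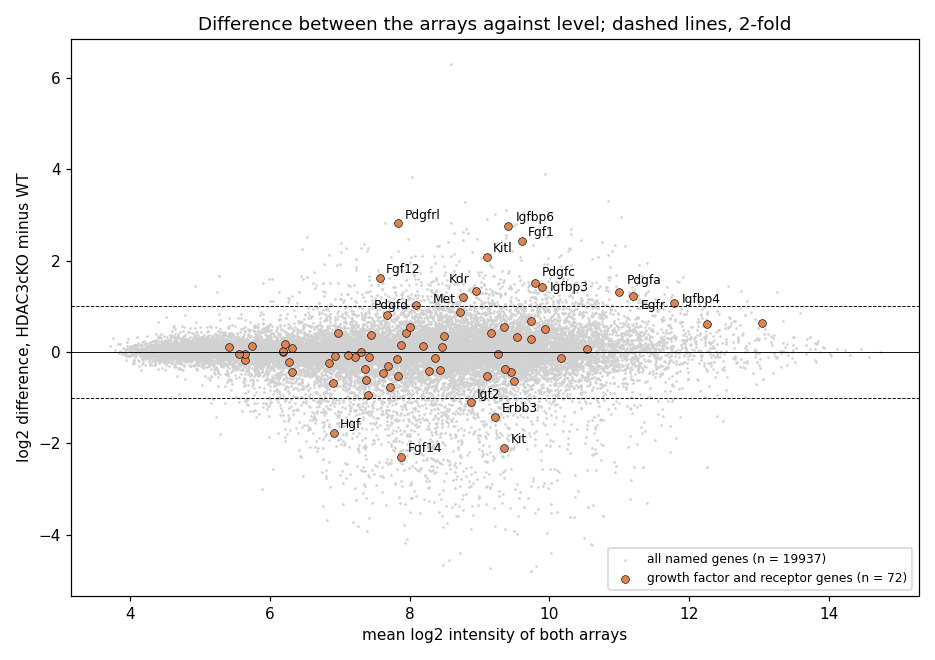
Log2 difference between the arrays (vertical axis) against the mean log2 intensity of both arrays (horizontal axis), for all 19937 named genes (grey) and the 72 growth factor and receptor genes (orange), with dashed lines at 2-fold. Labelled are the 13 genes at least 2-fold higher and the 5 at least 2-fold lower on the HDAC3cKO-labelled array.

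The 38 extracellular ligands and 19 receptors each held genes past 2-fold in both directions. Among the ligands 5 lay past 2-fold on the higher side and 2 on the lower side, and their median was -0.05. Among the receptors these counts were 4 and 2, and the median was 0.12. Of all named genes 2.97% were at least 2-fold higher and 5.88% lower, with a median of 0.01. Ligands and receptors thus each held a larger share of higher genes than all named genes did. Without Pdgfrl, Fgfrl1 and Igf2r, which have no kinase domain, 16 receptors remained, of which 3 lay past 2-fold on the higher side and 2 on the lower side. Within 2 pairs that consist of 1 ligand and 1 receptor, ligand and receptor lay past 2-fold in opposite directions.

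The first pair is KIT ligand and KIT. Kitl, the membrane-bound or shed ligand, was at 8.06 on the WT-labelled array and 10.14 on the HDAC3cKO-labelled array, 4.24-fold higher, at percentile 99.7 of all gene differences. Kit, its receptor, was at 10.41 and 8.31, 4.29-fold lower, at percentile 1.62. The ligand was thus the higher and the receptor the lower on the HDAC3cKO-labelled array, each by about as much. Cortical thymic epithelium (cTEC) also makes KIT ligand, and all 10 cTEC markers, listed without Kitl, lay above 0. Of these, 3 were at least 2-fold higher, or 2 after loess scaling or with a pseudocount of 50. The summed intensity of the cTEC list was 10760 on the WT-labelled array and 18848 on the HDAC3cKO-labelled array, and only Enpep, which encodes Ly51, was below the median level on both. Of 13 markers of mTEC, the sorted cells, 10 lay below 0, 5 were at least 2-fold lower and none 2-fold higher. Their median was -0.55 and their summed intensity 38562 and 30861, with none below the median level on both. Of cells known for KIT, mast cells had 6 of 8 markers below the median level on both arrays, Cpa3, Mcpt4, Tpsb2, Cma1, Ms4a2 and Fcer1a, and 5 of the 8 lay above 0 with a median of 0.09. Only Hdc was at least 2-fold lower, and the summed intensity of 1461 and 923 became 517 and 608 without it. Thymocyte markers, 1 of 13 at least 2-fold lower, summed to 5643 and 4187, with Cd3d, Rag2, Ptcra, Dntt and Cd2 below the median level on both. All 15 tuft cell markers were at least 2-fold lower on the HDAC3cKO-labelled array, with a summed intensity of 44029 and 3743. The part of these cells in the Kit and Kitl differences was not tested.

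The second pair is HGF, a mesenchymal growth factor, and MET, its receptor on epithelium. Hgf was at 7.79 on the WT-labelled array and 6.03 on the HDAC3cKO-labelled array, 3.40-fold lower, below the median level on both arrays. Met was at 8.15 and 9.37, 2.32-fold higher. Here the receptor was the higher and the ligand the lower, the reverse of the KIT pair. Macrophages and dendritic cells, which can make HGF, had all 17 markers below 0 and 4 of them at least 2-fold lower, and their summed intensity was 19593 and 9102, with Itgam, Mrc1, Aif1 and Clec9a below the median level on both arrays. Pericyte and smooth muscle markers went both ways, with 6 of 12 above 0, 6 below 0, a median of 0.07 and 1, Des, at least 2-fold lower. Their summed intensity was 17470 and 11479, or 10734 and 8081 without Acta2, the gene that moves the sum most, with Cspg4, Kcnj8, Abcc9 and Higd1b below the median level on both. Among the markers above 0, Mcam differed by 0.98 and Cnn1 by 0.93. The fibroblast list, described below, went mostly the other way, with 5 of 15 markers at least 2-fold higher, none 2-fold lower and 5 below 0. Its summed intensity was 10347 and 20490, or 6680 and 10491 without Dcn. The part of these cell types in the Hgf difference was not tested. Hgfac, which encodes a protease that activates HGF, was at 7.86 and 6.59, 2.41-fold lower, but under 2-fold with a pseudocount of 50, at -0.95.

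Because members of each of these pairs lay past 2-fold in opposite directions, their promoters are shown. They are the 250 bases before the first start site that the RefSeq promoter table of GRCm38.p6 lists for the gene, each on the plus strand: chr10:100015571-100015820 for Kitl, chr5:75574737-75574986 for Kit, chr5:16553245-16553494 for Hgf and chr6:17463707-17463956 for Met. Capitals mark exact matches, on either strand, to GGGCGG (the GC box bound by SP1), TATAAA (the TATA box), AGGTCA (the half-site of nuclear receptors, which can bring HDAC3 corepressors) and TGGGAA (the core of RBPJ sites). The files name no genome build for the array values, so these coordinates belong to the table only.
Kitl: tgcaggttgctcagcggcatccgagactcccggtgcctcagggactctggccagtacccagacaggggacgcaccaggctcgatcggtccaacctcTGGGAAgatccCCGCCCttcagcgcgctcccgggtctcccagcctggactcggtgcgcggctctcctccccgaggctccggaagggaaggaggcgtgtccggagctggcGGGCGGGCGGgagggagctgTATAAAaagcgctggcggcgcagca
Kit: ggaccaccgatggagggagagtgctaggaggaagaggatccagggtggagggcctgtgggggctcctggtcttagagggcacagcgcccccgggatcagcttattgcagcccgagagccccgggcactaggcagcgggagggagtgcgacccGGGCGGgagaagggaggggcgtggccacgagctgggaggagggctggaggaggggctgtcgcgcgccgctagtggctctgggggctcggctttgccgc
Hgf: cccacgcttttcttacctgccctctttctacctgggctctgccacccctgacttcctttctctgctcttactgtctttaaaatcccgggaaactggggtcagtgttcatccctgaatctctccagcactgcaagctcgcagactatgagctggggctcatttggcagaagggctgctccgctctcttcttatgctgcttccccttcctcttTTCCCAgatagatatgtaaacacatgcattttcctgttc
Met: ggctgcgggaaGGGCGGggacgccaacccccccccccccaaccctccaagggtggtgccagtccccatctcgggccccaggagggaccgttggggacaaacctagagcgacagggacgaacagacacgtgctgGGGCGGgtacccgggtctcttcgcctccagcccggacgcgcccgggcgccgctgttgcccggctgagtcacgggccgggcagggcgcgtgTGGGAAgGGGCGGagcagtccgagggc

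The Kitl promoter held 3 GC box matches, of which neighbouring ones overlap, 1 TATA box and 1 RBPJ core, with 23 CpG dinucleotides and 69.2% G and C. The Met promoter held 3 GC boxes and 1 RBPJ core, with 24 CpG and 74.0% G and C, and the Kit promoter held 1 GC box, 17 CpG and 70.8% G and C. The Hgf promoter, with 4 CpG and 50.8% G and C, held 1 RBPJ core and no GC box. Over all 32851 promoters of the table the same window had medians of 6 CpG and 52.4% G and C, so Hgf was near the middle and the other three were CpG-rich. The GC box stood in 32.7% of all promoters, the TATA box in 12.4%, the nuclear receptor half-site in 14.0% and the RBPJ core in 21.6%. Of the 72 genes, 56 had a promoter in the table. Of these, 30 held a GC box (53.6%), 8 a TATA box (14.3%), 7 a nuclear receptor half-site (12.5%) and 15 an RBPJ core (26.8%). Each of the 56 genes was counted by its first listed start only. The shares of all promoters count every listed start, so the sets are not fully alike. Among the 11 such promoters of the genes at least 2-fold higher, 6 held a GC box, 4 a TATA box, 5 an RBPJ core and none the nuclear receptor half-site. Among the 4 of the genes at least 2-fold lower, 2 held a GC box, 2 an RBPJ core, 1 the half-site and none a TATA box. Matches describe letters in this window and show no binding.

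Of the 4 PDGF ligands, 3 were at least 2-fold higher. PDGFs act mainly on mesenchymal cells, and epithelium is a source of PDGF-A and PDGF-C, which bind the alpha receptor. Pdgfc was at 9.05 on the WT-labelled array and 10.55 on the HDAC3cKO-labelled array, 2.84-fold higher. Pdgfa was at 10.34 and 11.65, 2.49-fold higher. Pdgfd, whose product binds the beta receptor, was at 7.58 and 8.61, 2.05-fold higher, though under 2-fold after loess scaling, at 0.9998 on the log2 scale, and with a pseudocount of 50, at 0.88. The fourth ligand, Pdgfb, was at 9.07 and 9.62, a difference of 0.54. All 4 ligands thus lay above 0, and 2 of the 4 were past 2-fold after loess scaling or with the pseudocount. The kinase receptors did not follow: Pdgfra was at 8.09 and 7.58, a difference of -0.52, and Pdgfrb was at 8.40 and 8.51, a difference of 0.12. Pdgfrl, a PDGF receptor-like protein without a kinase domain, had the largest positive difference of the 72 genes. It was at 6.43 and 9.25, 7.05-fold higher, at percentile 99.9 of all gene differences.

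Genes listed as markers of fibroblasts and of mesothelium also differed between the arrays, and which cells they came from is not known here. The fibroblast list had 5 of its 15 markers at least 2-fold higher on the HDAC3cKO-labelled array and none 2-fold lower, while 5 lay below 0, the lowest of them Postn at -0.78. The summed intensity was 10347 on the WT-labelled array and 20490 on the HDAC3cKO-labelled array, or 6680 and 10491 without Dcn, the gene that moves the sum most, with Lum, Twist2 and Prrx1 below the median level on both. Of 8 mesothelial markers, 7 were at least 2-fold higher, or 6 with a pseudocount of 50. None was below the median level on both arrays. The other marker, Msln, was at 11.13 and 10.72, a difference of -0.41. The summed intensity of the list was 3704 and 9495, or 3341 and 6519 without Upk3b, the gene that moves the sum most. The part of fibroblasts and mesothelium in the differences of the PDGF, IGF binding protein and FGF1 genes was not tested.

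IGF binding proteins, secreted carriers that hold IGFs and regulate their access to the IGF receptor, had 3 of 7 genes at least 2-fold higher, while 1 of the 2 IGF ligands was at least 2-fold lower. Igfbp6, which prefers IGF2, was at 8.03 on the WT-labelled array and 10.79 on the HDAC3cKO-labelled array, 6.79-fold higher, at percentile 99.9. Igfbp3, the main carrier in serum, was at 9.18 and 10.61, 2.70-fold higher. Igfbp4 was at 11.25 and 12.33, 2.10-fold higher, but under 2-fold after quantile normalization and loess scaling, at 0.9965 and 0.97 on the log2 scale. Igfbp7, of low affinity for IGFs, was at 12.72 and 13.36 and Igfbp5 at 11.95 and 12.56, differences of 0.64 and 0.61. Igfbp1 was at 6.17 and 6.18 and Igfbp2 at 7.84 and 7.39, differences of 0.01 and -0.46. Thus 6 of the 7 lay above 0 and 3 of the 7 past 2-fold, with a median of 0.64. After loess scaling 5 of 7 lay above 0.

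Both IGF ligands lay below 0. Igf2, a fetal growth factor, was at 9.42 on the WT-labelled array and 8.32 on the HDAC3cKO-labelled array, 2.15-fold lower, and just under 2-fold with a pseudocount of 50, at -0.9960. Igf1 was at 9.56 and 9.18, a difference of -0.38. Their receptors differed little: Igf1r, the kinase, was at 10.23 and 10.10, a difference of -0.13, and Igf2r, a receptor without a kinase that clears IGF2, was at 9.59 and 9.88, a difference of 0.29. Insr, the insulin receptor, which is outside the rule, was at 9.33 and 9.85, a difference of 0.52. Most carriers and both ligands therefore lay on opposite sides of 0, with the kinase receptor between them.

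FGF ligands other than FGF1 showed small differences. Fgf1, whose product binds every FGF receptor, was at 8.39 on the WT-labelled array and 10.83 on the HDAC3cKO-labelled array, 5.40-fold higher, at percentile 99.8. The other 17 ligands ran from -0.77 for Fgf21, an endocrine FGF at 8.11 and 7.34, to 0.42 for Fgf18, at 7.73 and 8.15, with a median of -0.06. Fgf20 had the same value on both arrays, at 6.19. The mesenchymal factors for thymic epithelium were low on both arrays: Fgf7 was at 5.72 and 5.55, a difference of -0.17, and Fgf10 at 6.37 and 6.16, a difference of -0.21. Fgf2 was at 5.68 and 5.81, a difference of 0.13. Among the other paracrine FGFs, Fgf16 was at 8.96 and 9.36, Fgf8 at 8.13 and 8.26, Fgf9 at 7.84 and 7.53, and Fgf22 at 7.89 and 7.73. Fgf17, Fgf3, Fgf4, Fgf5 and Fgf6 differed by between -0.09 and 0.17, all from levels below the median on both arrays. The endocrine factors Fgf23, which lowers blood phosphate, and Fgf15, which lowers bile acid synthesis, differed by -0.41 and -0.11. Their co-receptor genes Kl and Klb differed by -0.10 and -0.07 and were below the median level on both arrays, chosen after their values were seen. Of the 18 ligands 11 lay below 0, but 9 of 18 after median centring, so the FGF ligands have no common direction here.

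FGF receptors differed by less than 2-fold in every case. Fgfr2, the main FGF receptor of thymic epithelium, was at 10.51 and 10.57, a difference of 0.06, and its probe set does not separate the epithelial and mesenchymal splice forms. Fgfr1 was at 8.29 and 9.15, 1.82-fold higher, and Fgfr4 was at 7.88 and 6.93, 1.93-fold lower, below the median level on both arrays. Fgfr3 was at 8.42 and 8.29, a difference of -0.13, and Fgfrl1, a receptor-like protein without a kinase domain, at 8.32 and 8.66, a difference of 0.34. The FGF binding proteins Fgfbp1 and Fgfbp3, which release FGFs from matrix, differed by -0.67 and 0.10.

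The 4 FGF-like factors that are not secreted and act on voltage-gated sodium channels went both ways. Fgf14 was at 9.03 on the WT-labelled array and 6.73 on the HDAC3cKO-labelled array, 4.92-fold lower, the largest negative difference of the 72 genes. Fgf12 was at 6.76 and 8.39, 3.08-fold higher. Fgf13 and Fgf11 differed by 0.55 and -0.62. The name-matched Fgf2os and Fgfr1op2 differed by 0.12 and -0.05.

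The 6 EGF family ligands of the rule all lay below 0, while Egfr was at least 2-fold higher. Egfr, the receptor for EGF, TGF-alpha, HB-EGF, epiregulin and betacellulin, was at 10.58 on the WT-labelled array and 11.81 on the HDAC3cKO-labelled array, 2.35-fold higher. Erbb3, a receptor of neuregulins with little kinase activity of its own, was at 9.94 and 8.51, 2.69-fold lower. Erbb2, the partner receptor with no ligand of its own, was at 9.82 and 9.17, a difference of -0.65, and Erbb4 was low on both arrays at 5.67 and 5.63. The receptors of this family thus split, with Egfr and Erbb3 past 2-fold in opposite directions.

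The 6 ligands ran from -0.54 to -0.23, with a median of -0.42, and none reached 1.5-fold. Tgfa was at 9.37 and 8.84, Hbegf at 9.67 and 9.24, and Nrg1, a ligand of ERBB3, at 8.64 and 8.23. Ereg, Btc and Egf, all below the median level on both arrays, differed by -0.43, -0.38 and -0.23. All 6 stayed below 0 under each rescaling tried. A pseudocount cannot change a sign, and median centring moved all differences alike by too little to do so. Ligands outside the rule did not all lie lower. Nrg4, a neuregulin that binds ERBB4, was at 8.79 and 5.90, 7.45-fold lower. Epgn, an EGFR ligand chosen after its value was seen, was at 7.42 and 6.10, 2.50-fold lower. With a pseudocount of 50 the Epgn difference was under 2-fold, at -0.90. The neuregulin gene Nrg2, also chosen after its value was seen, was at 7.44 and 8.10, a difference of 0.66. Nrg3, chosen in the same way, was at 6.09 and 6.08, a difference of -0.01. Tuft cell markers, of which all 15 were at least 2-fold lower as given above, and cornified cell markers, of which 12 of 13 were at least 2-fold lower with a summed intensity of 28138 and 5149, and with only Klk5 below the median level on both arrays, also lay below 0. Their part in the ERBB3 and ligand differences was not tested.

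**Figure D3:**
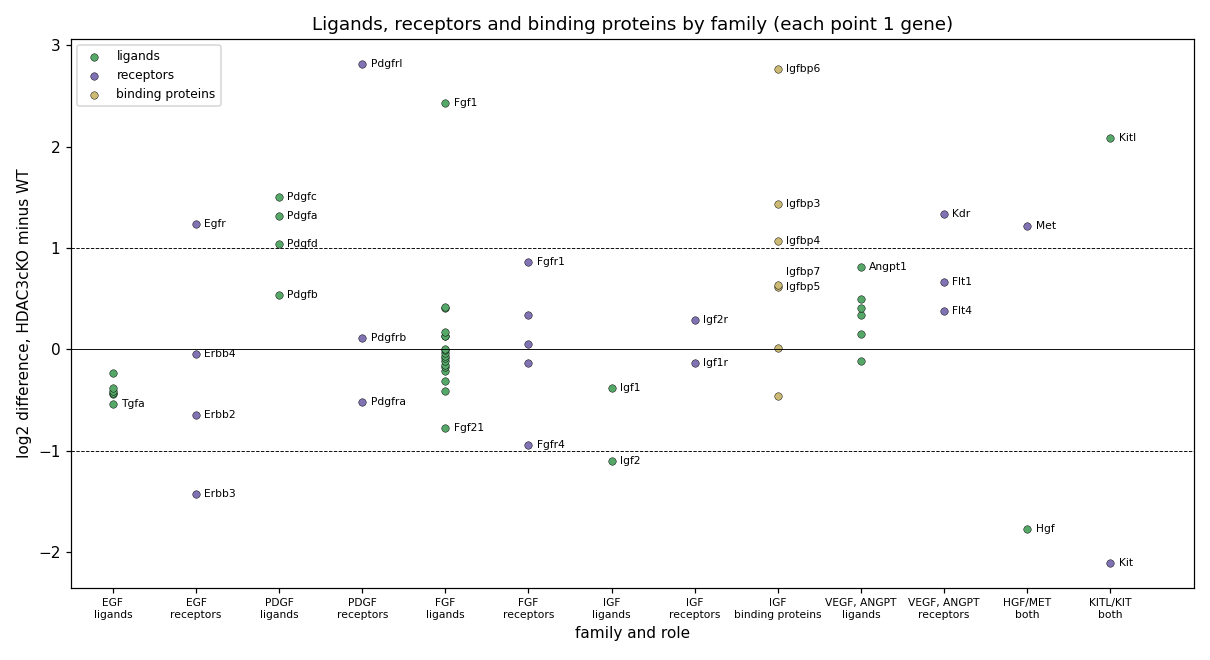
Log2 difference between the arrays (vertical axis) of each gene by family and role (horizontal axis), with ligands in green, receptors in purple and binding proteins in yellow, and dashed lines at 2-fold. Ligands and receptors separate in the HGF and KIT pairs, PDGF ligands lie above 0, and EGF ligands lie below 0 with Egfr above them at 1.23.

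VEGF receptors lay above 0 together with most of their ligands. Kdr, the main signalling receptor for VEGF-A on endothelium, was at 8.28 on the WT-labelled array and 9.62 on the HDAC3cKO-labelled array, 2.53-fold higher. Flt1, which binds VEGF-A tightly and limits its action, was at 9.40 and 10.07, a difference of 0.67, and Flt4, the receptor of lymphatic endothelium, at 7.25 and 7.63, a difference of 0.38. Vegfa was at 9.68 and 10.18, a difference of 0.50, and the 6 VEGF and angiopoietin ligands ran from -0.11 for Vegfd to 0.81 for Angpt1, with none past 2-fold. Between them, Vegfb was at 9.37 and 9.71, Vegfc at 7.81 and 7.96, and Angpt2 at 6.76 and 7.18. Angpt1, which stabilises vessels through the receptor TIE2, was at 7.27 and 8.08, 1.76-fold higher. Placental growth factor, Pgf, a FLT1 ligand outside the rule that was chosen after its value was seen, was at 9.51 and 10.76, 2.37-fold higher. Of 19 endothelial markers, listed without these receptors, all lay above 0 and 9 were at least 2-fold higher, or 5 after loess scaling, their summed intensity was 12679 and 25954, and only Clec14a was below the median level on both arrays. Their part in the Kdr and Flt1 differences was not tested.

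Beyond the ligands and receptors, 133 of 146 listed genes of the pathway were measured, among them co-receptors, processing enzymes, adaptors, cascade kinases and feedback genes. At least 2-fold higher were 19, or 14.3%, and at least 2-fold lower 8, or 6.02%, beside 2.97% and 5.88% of all named genes. Their median difference was 0.07. None of the 9 measured RAS-MAPK genes and none of the 15 measured PI3K-AKT genes lay past 2-fold, and their medians were -0.19 and -0.05, with ranges of -0.63 to 0.74 and -0.65 to 0.99. Of the 13 listed genes not analysed here, 7 of 16 were in the RAS-MAPK list and 2 of 17 in the PI3K-AKT list, so these counts do not cover either cascade as a whole. Pik3r1, a PI3K regulatory subunit chosen after its value was seen, was at 10.91 and 11.89, a difference of 0.99 that became 1.04 after median centring. Of 15 adaptors, 1 lay past 2-fold: Plcg2, a phospholipase of blood cell receptors, was at 10.45 and 8.32, 4.36-fold lower. Sos1, an exchange factor that activates RAS and was chosen after its value was seen, was at 10.10 and 9.10, just under 2-fold at -0.9990 and past it after quantile normalization and loess scaling, at -1.0047 and -1.06.

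Feedback inhibitors and target genes of receptor tyrosine kinase signalling had a median of 0.51, with 6 of 20 past 2-fold on the higher side and 1 on the lower side. Of all named genes 2.97% and 5.88% lay so. The 6 became 5 after loess scaling and 4 with a pseudocount of 50. Of the 20 genes, 13 lay above 0 and 7 below 0, and Spry3, Spred3, Il17rd, Rasal1 and Etv4 were below the median level on both arrays. Lrig3, a membrane protein of the receptor-regulating LRIG family, was at 8.75 on the WT-labelled array and 10.14 on the HDAC3cKO-labelled array, 2.61-fold higher. Etv5, an FGF-responsive transcription factor, was at 7.57 and 8.94, 2.60-fold higher. Dusp6, the phosphatase that turns off ERK, was at 10.18 and 11.51, 2.52-fold higher. The Sprouty inhibitors Spry1, Spry2 and Spry4 differed by 0.92, 1.06 and 0.78, with Spry2 just past 2-fold and under it with a pseudocount of 50, at 0.98. Dusp4, another MAPK phosphatase, went the other way, at 10.40 and 8.27, 4.37-fold lower, and Etv4 was low on both arrays and differed by -0.16. The list therefore holds members past 2-fold in both directions, and its median stood above 0 under each rescaling tried. The pseudocount and the small shift of median centring could not have changed the sign of that median.

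Co-receptors and heparan sulphate carriers, which present FGFs, VEGFs and HGF to their receptors, had a median of 0.49, with 4 of 19 at least 2-fold higher and none 2-fold lower. Sulf1, a sulphatase that trims heparan sulphate, was at 10.01 and 11.40, 2.63-fold higher. Gpc3, a glypican, was at 8.41 and 9.78, 2.59-fold higher, and the syndecan Sdc2 at 8.64 and 9.68, 2.07-fold higher. After loess scaling or with a pseudocount of 50, 2 of the 4 remained past 2-fold, and Sdc2 was at 0.99 and 0.96. The VEGF co-receptors Nrp1 and Nrp2 differed by 0.85 and 0.04. Of 18 ligand processing genes, 13 lay below 0 and 5 above 0, with a median of -0.33. Plat, which encodes tissue plasminogen activator, was the 1 gene at least 2-fold higher, at 8.44 and 10.21, 3.41-fold. Hgfac was the 1 gene at least 2-fold lower.

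Of 37 genes listed as other receptor tyrosine kinases and ligands, 8 were higher and 5 lower by 2-fold or more, or 6 and 3 with a pseudocount of 50. Beside these stand 2.97% and 5.88% of all named genes, or 2.21% and 4.48% with the pseudocount. Angptl4, an angiopoietin-like secreted protein that inhibits lipoprotein lipase and is no known ligand of a receptor tyrosine kinase, was at 8.10 and 10.66, 5.91-fold higher. It is counted among the 8. Ror2, a receptor for WNT5A, was at 7.56 and 9.12, 2.94-fold higher, and Csf1, the macrophage growth factor, at 9.56 and 11.04, 2.79-fold higher. Ret, the GDNF receptor, was at 8.82 and 7.25, 2.96-fold lower, and Flt3, a receptor of progenitors and dendritic cells that the macrophage and dendritic cell list also holds, was at 9.18 and 7.61, 2.95-fold lower. Tek, the angiopoietin receptor, which the endothelial list also holds, differed by 0.17. Leaving out all genes that a cell type list also holds gave 18 pathway genes higher and 7 lower by 2-fold or more.

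**Figure D4:**
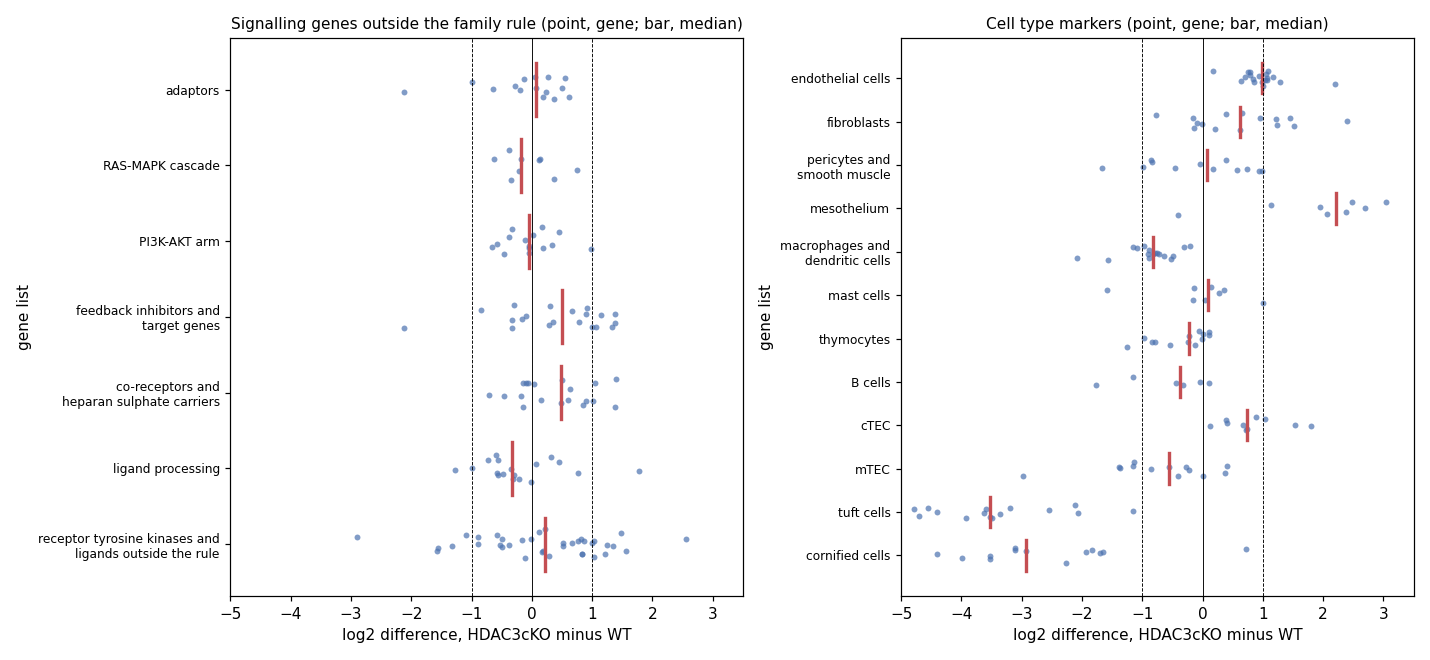
Log2 difference between the arrays (horizontal axis) of each gene (points, spread vertically only for legibility) in 7 signalling lists (left) and 12 cell type marker lists (right, vertical axes), with the list median as a red bar and dashed lines at 2-fold. Feedback and co-receptor genes have medians of 0.51 and 0.49, whereas mesothelial markers lie mostly above 2-fold and tuft and cornified markers mostly below it.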

How the data were processed

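The deposited table gave linear intensities, which the authors had made with RMA per the submitters' processing notes; its version and settings are not known here. The range was 10.8 to 29745 (WT label) and 11.5 to 29465 (HDAC3cKO label). Values were taken to log2 without a pseudocount or rescaling. There are no detection calls, so a low level is no sign of absence, and the number of arrays limits the precision.

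Of 34760 probe sets, 21640 had 1 gene symbol in the platform annotation, which can be old, 1321 had several and 11799 had none. The probe set with the highest mean stood for each of 19937 genes. Genes were counted at differences of at least 1 or at most -1 on the log2 scale (2-fold), over all members with no filter on low values, beside the same count over all genes. No test was run. The genes and lists were chosen with earlier results of these data known. The named genes are those past 2-fold, every receptor, a fixed set of ligands and pathway genes, and up to 3 genes per pathway list and direction, with exceptions marked where they occur. Promoters came from the RefSeq table of GRCm38.p6. The counting and rescaling were tested on simulated data. Alternatives were median centring, quantile normalization, loess scaling (span 0.3), a pseudocount of 50, the mean of all probe sets, a filter on low levels, thresholds of 1.5-fold and 3-fold, and list means. Tools were pandas 2.3.3 and numpy 2.4.6 under Python 3.11.15, with loess from statsmodels 0.14.6 and figures from matplotlib 3.10.9.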

Additional observations from a re-analysis of the deposited data

How the results depend on the processing

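Of the 18 genes past 2-fold, 18 kept their direction under median centring, quantile normalization, loess scaling and a pseudocount of 50. The number under 2-fold was 0 after median centring, 1 after quantile normalization (Igfbp4), 2 after loess scaling (Igfbp4 and Pdgfd) and 2 with the pseudocount (Igf2 and Pdgfd). No further member passed 2-fold under these 4 settings. Median centring shifted all differences alike by a small amount and a pseudocount only shrinks them, so neither could reverse a difference past 2-fold. None of these settings can stand in for replicate arrays. Keeping only genes at or above the median level gave 11 members higher and 3 lower of 36 counted, with a median of 0.38, and 19 pathway genes higher and 3 lower of 102 counted, with a median of 0.21. Over the 9969 genes so kept, 4.54% were higher and 6.75% lower. The cause of the shifts in the medians was not tested. The median level is the mean over both arrays, so a gene can pass through the array on which it is high. At 1.5-fold, 10 members were lower. Of the 133 pathway genes 28.6% (38) were then higher and 14.3% (19) lower, beside 8.33% and 11.2% of all named genes. At 3-fold, 5 members were higher and 3 lower. Of the 133 pathway genes 2 were then higher and 3 (2.26%) lower, beside 0.757% and 2.88% of all named genes. With the pseudocount, 13 of the 133 pathway genes were higher and 5 lower, and after loess scaling 14 were higher and 10 lower. The shares of all named genes were 2.21% and 4.48% with the pseudocount, and 2.6% and 6.2% after loess scaling. Endothelial markers at least 2-fold higher numbered 9, but 5 after loess scaling and 7 with the pseudocount. Pericyte markers at least 2-fold lower went from 1 to 2 after quantile normalization and loess scaling, as did adaptors, and thymocyte markers and ligand processing genes went from 1 to 2 after loess scaling. The mean of the members was 0.17, beside their median of 0.03, and their median was -0.02 after loess scaling. Averaging probe sets and leaving out the 2 name-matched symbols left the member counts at 13 and 5. Neither could change these counts, because each member has 1 probe set and both name-matched symbols lay under 2-fold. Leaving out the name-matched symbols, leaving out marker genes from the pathway lists, and leaving 1 gene out of a marker sum were chosen after seeing the data. No paired analysis was possible because each genotype had 1 array. For the same reason no array could be left out.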
